A study of Mus musculus with 12 samples.

Results

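Peroxisomal beta-oxidation genes were followed in mouse liver by 9 genes that were chosen by name and looked up by gene symbol in the count tables, out of 54532 genes counted in each library. They are Abcd2 and Abcd3, which encode transporters of fatty acyl-CoA in the peroxisomal membrane, the bifunctional enzymes Ehhadh and Hsd17b4, the 3-ketoacyl-CoA thiolases Acaa1a and Acaa1b, the 2,4-dienoyl-CoA reductase Decr2, the carnitine O-octanoyltransferase Crot, and Pex11a, a membrane protein of peroxisome division. Male mice carrying floxed PPARγ alleles were injected at 8 weeks of age with an AAV8 vector in which the TBG promoter drove Cre (labelled PPARγ-KO) or GFP (labelled WT), and were then fed a fast-food diet (FFD) of 21% fat, 0.2% cholesterol and 34% sucrose, with fructose and glucose in the drinking water, for 2 or 5 months. Floxed alleles, an AAV8 vector and the diet were therefore shared by all 4 groups, and because the TBG promoter is active in hepatocytes, other liver cells of PPARγ-KO mice kept the gene. Each group had 3 libraries of whole-liver RNA. The labels call these libraries repeats of a group and do not tie them to animals. The p-values therefore set group differences against the spread between these libraries, which may not cover variation between mice.

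Peroxisomes shorten very long chain, branched and dicarboxylic fatty acids that mitochondria take up poorly. A fatty acyl-CoA is imported by an ABC transporter, oxidized by an acyl-CoA oxidase that passes electrons to oxygen, hydrated and dehydrogenated by a bifunctional enzyme, and cleaved by a thiolase, and the shortened chain leaves the organelle as a carnitine ester. In rodent liver many genes of this pathway are classical targets of PPARα, the nuclear receptor named for peroxisome proliferation, which shares its DNA element with PPARγ.

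Library totals ran from 16367775 to 27452284 counts, and the 9 genes together took 0.398% to 0.794% of them. Pparg, the targeted gene, was 37.6 to 41.4 CPM (counts per 1000000 counts of the scaled library) in WT and 50.4 to 66.5 CPM in PPARγ-KO at 2 months, and 36.9 to 41.4 against 75 to 92.9 CPM at 5 months. Its level was thus higher in libraries labelled PPARγ-KO, by a log2 fold change of 0.52 at 2 months (adjusted p = 0.0309 by the quasi-likelihood F-test of edgeR, adjusted over all genes tested) and 1.15 at 5 months (adjusted p = 2.57e-06). Counts per gene do not show whether the floxed exons were present, so this level checks neither the deletion nor the labels, and every direction below refers to libraries labelled PPARγ-KO. WT replicate 1 at 2 months stood apart from its group, with a chi-square per gene of 28.7 and 25 to the other libraries against 9.41 between those. At 5 months WT replicate 1 lay at 12.1 and 13.4 from the others of its group, values that PPARγ-KO pairs also reached (8.61 to 15.9). WT replicates 2 and 3 of that time were unusually alike, at 2.35. Results whose call changes without replicate 1 of either WT group are given in both ways. At 2 months 6 of the 9 genes were called without it, adding Hsd17b4, while calls over all genes rose from 519 to 1577. The added call is therefore not particular to these genes. At 5 months Abcd2 was added without it, but WT was then only replicates 2 and 3, whose spread is small. As a check of the liver label, the 7 hepatocyte markers measured summed to 55691 to 87416 CPM, while the 4 adipocyte markers summed to at most 0.118 CPM and were at 0 in all 3 PPARγ-KO libraries at 5 months.

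RefSeq promoters (GRCm38.p6) were found for 7 of the 9 genes, as 8 windows of 250 bases before and 50 after a start site. The binding element of PPAR with its partner RXR is a direct repeat of AGGTCA with 1 base between the copies. Searched on both strands, it was found with at most 3 mismatches in 0 of the 8 windows and in 24.6% of all 32851 promoters, and a single AGGTCA was found in 0 of the 8 and in 16.3% of all, which says only that these letters are absent from these short windows. A CCAAT box, searched after the windows had been read, was present on either strand upstream of the start in 4 of the 8 windows (Acaa1a, Acaa1b, Ehhadh and Crot) and in 33.8% of all promoters. The upstream windows of Acaa1b and Ehhadh are printed because both genes were lower in PPARγ-KO at 2 months and neither window overlaps an annotated exon. Capitals mark ATTGG, the CCAAT box read on the opposite strand, which begins 38 bases before the start in both genes and 185 bases before it as a second copy in Acaa1b. How often a box lies at that distance over all promoters was not counted, so the shared position is only described.
Acaa1b (chr9:119157094-119157343, minus strand): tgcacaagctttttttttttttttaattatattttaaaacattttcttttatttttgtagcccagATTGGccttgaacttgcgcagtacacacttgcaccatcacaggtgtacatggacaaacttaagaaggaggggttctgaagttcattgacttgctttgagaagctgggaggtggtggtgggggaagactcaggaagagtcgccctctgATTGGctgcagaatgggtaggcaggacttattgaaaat
Ehhadh (chr16:21787835-21788084, minus strand): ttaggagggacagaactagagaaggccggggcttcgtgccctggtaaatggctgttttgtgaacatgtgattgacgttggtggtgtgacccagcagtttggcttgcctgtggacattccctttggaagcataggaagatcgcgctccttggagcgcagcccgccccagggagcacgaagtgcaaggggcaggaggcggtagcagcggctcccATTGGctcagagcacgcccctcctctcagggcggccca

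Compared per length, as CPM divided by the gene's length in kilobases (RPKM), the 9 genes spanned from Acaa1b at 1733 ± 163 RPKM (SD, n = 3) to Abcd2 at 7.93 ± 1.52 RPKM in WT at 2 months. Ehhadh (199 ± 15.3) and Hsd17b4 (191 ± 7.24 RPKM) followed Acaa1b and overlapped in range, as did Abcd3 (132 ± 5.21) and Decr2 (129 ± 6.25 RPKM). Crot (97.4 ± 4.99 RPKM) stood below these and above Acaa1a (71.9 ± 4.27 RPKM), and Acaa1a overlapped with Pex11a (65.1 ± 17.2 RPKM). In PPARγ-KO at 2 months Acaa1b was still first at 934 ± 137 RPKM. Its share of the summed CPM of the 9 genes was 47.1% to 50.6% in WT and 35.9% to 39.4% in PPARγ-KO at 2 months, and 46.2% to 47.3% against 32.6% to 36.3% at 5 months. Crot changed its place over time and reached 162 ± 3 RPKM in WT at 5 months, above Abcd3 at 86.3 ± 5.48 RPKM.

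**Figure D1:**
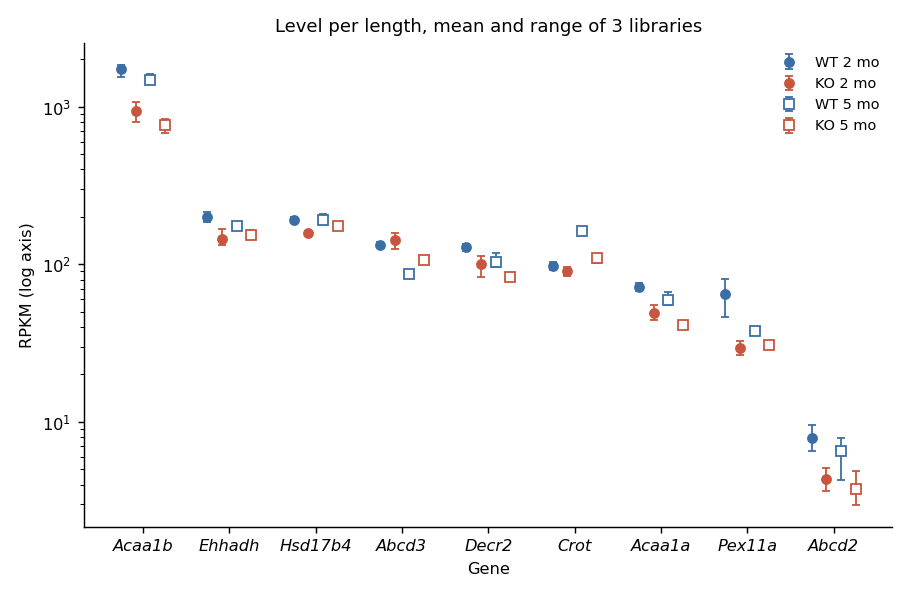
Level of the 9 genes per length in RPKM (log axis) for WT (blue) and PPARγ-KO (red) at 2 months (filled circles) and 5 months (open squares), where a symbol is the mean and the bar the range of 3 libraries. Acaa1b stands at 768 to 1733 RPKM in the 4 groups and Abcd2 at 3.73 to 7.93 RPKM.

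At 2 months 5 of the 9 genes were lower in PPARγ-KO and 0 were higher, where 1.78% of the 14573 genes tested were lower and 1.78% higher. Those 5 were Pex11a, Acaa1b, Abcd2, Acaa1a and Ehhadh, with log2 fold changes from -1.14 to -0.46. For 7 of the 9 all PPARγ-KO libraries lay below all WT libraries, which held for 12.0% of all genes tested. The median log2 fold change was -0.46 over the 9 genes and 0.00 over all genes tested. At 5 months 5 were lower (Acaa1b, Crot, Acaa1a, Decr2 and Pex11a) and 1, Abcd3, was higher, where 9.51% of the 14138 genes tested were lower and 8.90% higher. At that time 7 lay below without overlap (19.0% of all genes) and 1 above (15.8%), and the median was -0.31 against -0.01 over all genes. Ehhadh, Hsd17b4, Acaa1a, Acaa1b, Abcd2, Pex11a, Decr2 and Crot also stand in peroxisome or lipid metabolism gene lists that the study derived from these libraries, so their direction is not independent evidence.

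None of the hepatocyte markers was called lower. Their summed level was 58881 to 68177 CPM in WT and 74914 to 85700 CPM in PPARγ-KO at 2 months, and 55691 to 61962 against 75816 to 87416 CPM at 5 months, with 1 of 7 markers called higher at each time and 0 lower. Most of these sums was Alb, whose mean was 44907 CPM in WT and 57732 in PPARγ-KO at 2 months and 36944 against 57053 CPM at 5 months, and the median log2 fold change over the 7 markers was 0.33 at 2 months and 0.09 at 5 months, where 3 of 7 estimates were below 0. The 7 macrophage markers summed to 482 to 614 CPM in WT and 495 to 584 CPM in PPARγ-KO at 2 months, with 0 called, and to 1346 to 1553 against 630 to 832 CPM at 5 months, with 7 of 7 called lower. Stellate cell markers summed to 432 to 592 against 317 to 349 CPM at 2 months (1 of 7 lower) and to 559 to 696 against 423 to 477 CPM at 5 months (4 of 7 lower). Of 5 endothelial markers 0 were called at 2 months (259 to 318 against 283 to 294 CPM) and 3 were lower at 5 months (217 to 228 against 186 to 199 CPM). The part of these other cells in the results was not tested, and in whole liver fewer cells of a type and less RNA per cell cannot be told apart.

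**Figure D2:**
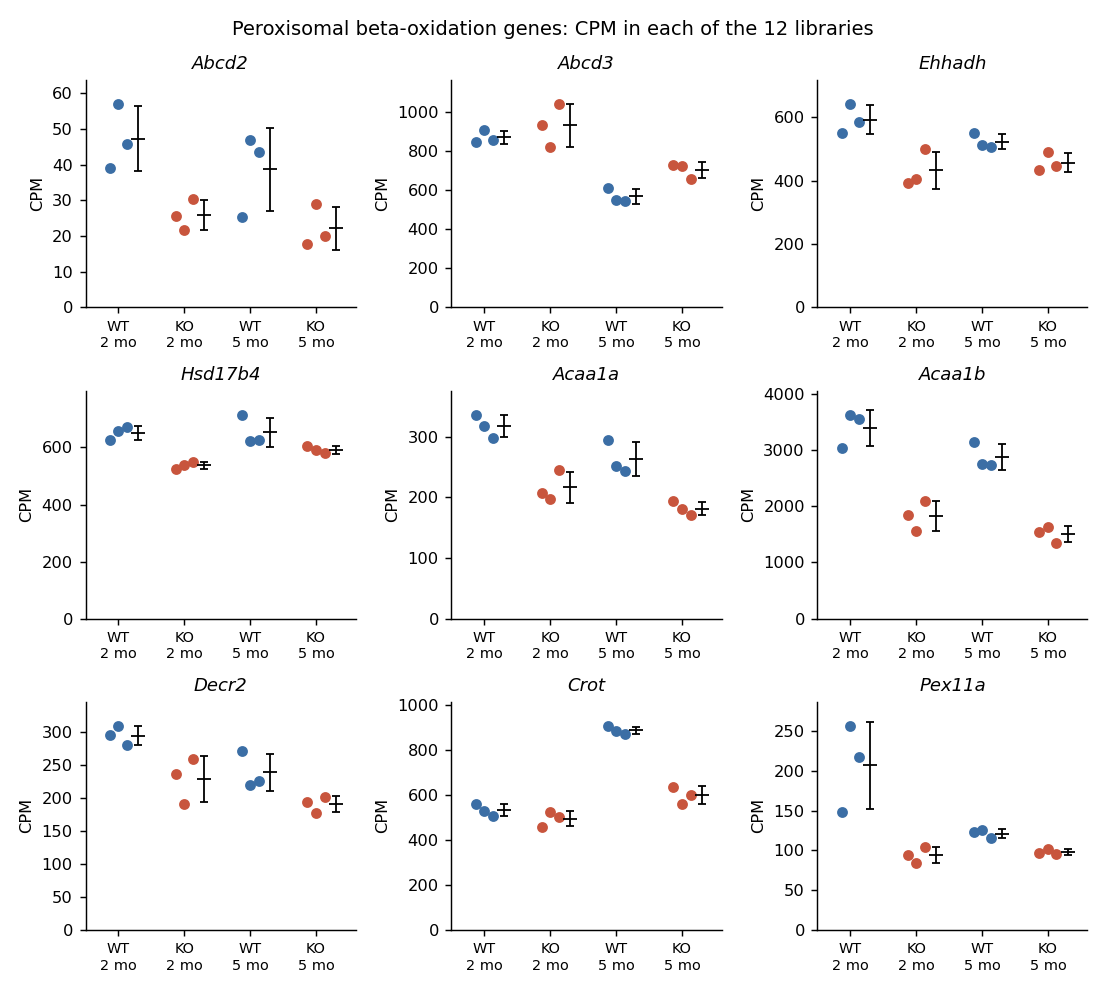
CPM of each of the 9 genes in the 12 libraries (points, WT blue and PPARγ-KO red) with the mean and SD of each group of 3 (black). Acaa1b runs from 1340 to 3620 CPM with both PPARγ-KO groups below both WT groups, while Crot stands highest in WT at 5 months (871 to 903 CPM).

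Of the transporters, Abcd2 was lower at 2 months and Abcd3 higher at 5 months. Abcd2, which carries very long chain and polyunsaturated acyl-CoA, was 38.9, 56.9 and 45.7 CPM in the WT libraries and 25.7, 21.7 and 30.3 CPM in the PPARγ-KO libraries at 2 months. After 5 months its levels were 25.4, 46.9 and 43.6 CPM in WT and 17.7, 29 and 19.9 CPM in PPARγ-KO. All PPARγ-KO libraries were below WT at 2 months, whereas at 5 months WT replicate 1 fell within the PPARγ-KO range. Abcd2 was lower at 2 months by 1.82-fold (log2 fold change -0.86, SE 0.162, adjusted p = 0.0302), a call that was lost with replicate number as a block (adjusted p = 0.0523), with all 12 libraries in 1 fit (0.0974) and without WT replicate 2 or 3 or PPARγ-KO replicate 1 or 2 (adjusted p 0.0684 to 0.123). At 5 months the estimate was close to that at 2 months but did not pass (-0.79, SE 0.329, adjusted p = 0.197), with a 95% interval from -1.66 to 0.08. Without WT replicate 1 it did pass (-1.02, adjusted p = 0.0433). That fit left WT replicates 2 and 3, the pair more alike than any other (chi-square per gene 2.35), so the spread within WT was small.

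Abcd3, the transporter of branched and dicarboxylic acyl-CoA, was 850, 912 and 856 CPM in WT and 937, 821 and 1042 CPM in PPARγ-KO at 2 months. The groups overlapped and the difference did not pass (log2 fold change 0.10, 95% interval -0.13 to 0.32, adjusted p = 0.659). The levels at 5 months were 610, 552 and 544 CPM in WT and 732, 727 and 658 CPM in PPARγ-KO. All PPARγ-KO libraries were then above WT, 1.25-fold (0.32, SE 0.0745, adjusted p = 0.00937), although the call was lost without WT replicate 2 or 3 (adjusted p 0.0582 and 0.0596). Within libraries, Abcd3 exceeded Abcd2 by 18.9 ± 2.9 times in WT and 36.3 ± 1.71 times in PPARγ-KO at 2 months (ratio of CPM, n = 3), and by 16.1 ± 6.87 against 33.1 ± 8.08 times at 5 months. The groups did not overlap at either time, and the exact two-sided permutation test gave p = 0.1 for each, the smallest that 3 against 3 allows (0.15 after adjustment over the 6 ratios compared).

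Of the bifunctional enzymes, which catalyse the same pair of steps on different stereoisomers, Ehhadh was lower at 2 months and Hsd17b4 did not pass. Ehhadh, the L-bifunctional enzyme (chr16:21761287-21787807), was 551, 642 and 587 CPM in WT and 393, 407 and 499 CPM in PPARγ-KO at 2 months. Every PPARγ-KO library was below every WT library, 1.37-fold on average (log2 fold change -0.46, SE 0.107, adjusted p = 0.0479). That call sat near the threshold: it was lost with DESeq2's size factors (adjusted p = 0.0507) and without WT replicate 2 or 3 or PPARγ-KO replicate 1 or 2 (0.137 to 0.2). At 5 months Ehhadh was 551, 512 and 508 CPM in WT and 434, 492 and 447 CPM in PPARγ-KO. The groups did not overlap, but the difference did not pass (-0.18, SE 0.0725, adjusted p = 0.101). It passed in 1 of 13 alternatives (lowest adjusted p 0.0144).

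Hsd17b4, the D-bifunctional enzyme on chromosome 18, was 625, 657 and 673 CPM in WT and 524, 539 and 550 CPM in PPARγ-KO at 2 months. Replicates were tight and did not overlap, yet the difference did not pass (log2 fold change -0.28, SE 0.077, adjusted p = 0.08). Without WT replicate 1, the library that stood apart, it did (-0.31, adjusted p = 0.0125), as it did with DESeq2 (0.0142), library size alone (0.0365), no filter on low counts (0.0334) and all 12 libraries in 1 fit (0.0268). By 5 months Hsd17b4 stood at 713, 624 and 625 CPM in WT and 606, 591 and 579 CPM in PPARγ-KO (-0.13, SE 0.0728, adjusted p = 0.244). This difference passed in 1 of 13 alternatives (lowest adjusted p 0.0355). The ratio of Ehhadh to Hsd17b4 in CPM was 0.911 ± 0.0583 in WT and 0.804 ± 0.0891 in PPARγ-KO at 2 months (n = 3, exact permutation p = 0.3, adjusted 0.36) and 0.802 ± 0.025 against 0.774 ± 0.0588 at 5 months (p = 0.6, adjusted 0.6), so a different response of the 2 enzymes was not shown.

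The thiolases, which make the final cleavage, were lower in PPARγ-KO at both times. Acaa1b (chr9:119148023-119157093) was 3033, 3620 and 3546 CPM in WT and 1839, 1561 and 2098 CPM in PPARγ-KO at 2 months. The 5-month libraries gave 3140, 2756 and 2729 CPM in WT and 1548, 1629 and 1340 CPM in PPARγ-KO. The highest of the 6 PPARγ-KO libraries was below the lowest of the 6 WT libraries. Acaa1b was lower 1.86-fold at 2 months (log2 fold change -0.89, SE 0.125, adjusted p = 0.00728) and 1.89-fold at 5 months (-0.92, SE 0.0924, adjusted p = 2.66e-05). Both calls held under all 14 alternatives, with a log2 fold change between -1 and -0.79 at 2 months and between -0.99 and -0.84 at 5 months.

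Acaa1a (chr9:119339676-119350299) was 335, 318 and 298 CPM in WT and 207, 197 and 245 CPM in PPARγ-KO at 2 months. At 5 months it was 295, 251 and 243 CPM in WT and 193, 180 and 171 CPM in PPARγ-KO. The groups did not overlap at either time. Acaa1a was lower 1.47-fold at 2 months (-0.55, SE 0.0954, adjusted p = 0.0174) and 1.44-fold at 5 months (-0.53, SE 0.0798, adjusted p = 0.00059). The call at 2 months was lost without WT replicate 2 or PPARγ-KO replicate 1 or 2 (adjusted p 0.062 to 0.088), and that at 5 months held under all 13 alternatives.

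The thiolase genes lie on chromosome 9 on opposite strands, 182582 bases apart, and their transcripts are alike. Of the 50-base windows of Acaa1b transcripts 35.5% also occur in Acaa1a, so reads could have been split between them and each level is uncertain on its own. Summed before the fit, an alternative added after the data were seen, the pair was lower by a log2 fold change of -0.86 at 2 months (SE 0.121, adjusted p = 0.00763) and -0.88 at 5 months (SE 0.0918, adjusted p = 3.58e-05). In CPM, Acaa1b exceeded Acaa1a by 10.8 ± 1.52 times in WT and 8.46 ± 0.475 times in PPARγ-KO at 2 months, and by 11 ± 0.302 against 8.31 ± 0.634 times at 5 months (n = 3, exact permutation p = 0.1 for each, adjusted 0.15). Of the 6 genes annotated between them only Oxsr1, a stress kinase, had enough counts to be tested, and it was 37.3 CPM in WT and 37.7 in PPARγ-KO at 2 months (adjusted p = 0.938) and 39.5 against 38.8 CPM at 5 months (adjusted p = 0.933). Exons of Acaa1a overlap those of Myd88 by 290 bases and exons of Acaa1b those of Dlec1 by 224 bases on the opposite strand. Reads of such pairs cannot be told apart without strand. Both overlapping genes had lower means in PPARγ-KO at both times, and only Myd88 at 5 months was called. Myd88 was 13.3 CPM in WT and 12.5 in PPARγ-KO at 2 months (adjusted p = 0.703). At 5 months it was 18.1 against 13.5 CPM (adjusted p = 0.0163). Dlec1 was 13.1 against 4.61 CPM at 2 months (adjusted p = 0.0988) and 2.09 against 0.951 CPM at 5 months (adjusted p = 0.245). The part of the shared bases in the thiolase results was not tested.

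Decr2, which reduces double bonds of unsaturated chains so that they can pass the cycle (chr17:26081211-26090329), was 296, 309 and 280 CPM in WT and 237, 191 and 260 CPM in PPARγ-KO at 2 months. Decr2 at 5 months was 271, 220 and 226 CPM in WT and 194, 178 and 202 CPM in PPARγ-KO. The groups did not overlap at either time. The difference did not pass at 2 months (log2 fold change -0.36, SE 0.109, adjusted p = 0.102, but 0.0442 with all 12 libraries in 1 fit and 0.00136 with no filter on low counts) and passed at 5 months (-0.31, SE 0.0827, adjusted p = 0.0198), where the call was lost without PPARγ-KO replicate 2 (adjusted p = 0.0837) and with all 12 libraries in 1 fit (0.0544).

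Crot, which hands shortened chains to carnitine for export to mitochondria (chr5:8966033-8997324), passed the test between genotypes at 5 months and not at 2 months. It was 560, 529 and 505 CPM in WT and 458, 523 and 500 CPM in PPARγ-KO at 2 months, when the groups overlapped (log2 fold change -0.11, 95% interval -0.30 to 0.08, adjusted p = 0.553). After 5 months Crot was 903, 881 and 871 CPM in WT and 636, 557 and 598 CPM in PPARγ-KO. All WT libraries at 5 months stood above all other libraries, and Crot was lower in PPARγ-KO 1.47-fold (-0.56, SE 0.072, adjusted p = 0.000192), a call held under all 13 alternatives. The difference between the 2 log2 fold changes was -0.46 (SE 0.108, adjusted p = 0.0423), and Crot was the only one of the 9 genes to pass this test, which 1.57% of the 15127 genes passed. It was lost with replicate number as a block (adjusted p = 0.0868) and without any 1 of 9 libraries. Exons of Crot overlap those of Gm37153 by 166 bases on the opposite strand and of Gm27941 by 39 bases on the same strand.

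Pex11a, which elongates the peroxisomal membrane before division (chr7:79735957-79743131), had the largest log2 fold change of the 9 genes at 2 months. It was 148, 256 and 217 CPM in WT and 93.9, 84.6 and 104 CPM in PPARγ-KO. WT replicate 1 was the lowest of its group and still above PPARγ-KO. Pex11a was lower 2.2-fold (-1.14, SE 0.202, adjusted p = 0.0381), with -1.33 (adjusted p = 6.2e-05) without WT replicate 1. The call was lost when any other library of that time was left out (adjusted p 0.0679 to 0.123), and with library size alone (0.0519). At 5 months Pex11a was 123, 125 and 115 CPM in WT and 96.3, 102 and 94.9 CPM in PPARγ-KO. The groups again did not overlap, at 1.23-fold (-0.29, SE 0.0629, adjusted p = 0.00562), a call lost when all 12 libraries were fitted together (0.246). The log2 fold changes of the 2 times differed by 0.83 (SE 0.221), which did not pass (adjusted p = 0.0963) but did without WT replicate 1 at 2 months (1.03, adjusted p = 0.000264), with DESeq2 (0.00621) and without a filter on low counts (9.83e-05).

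**Figure D3:**
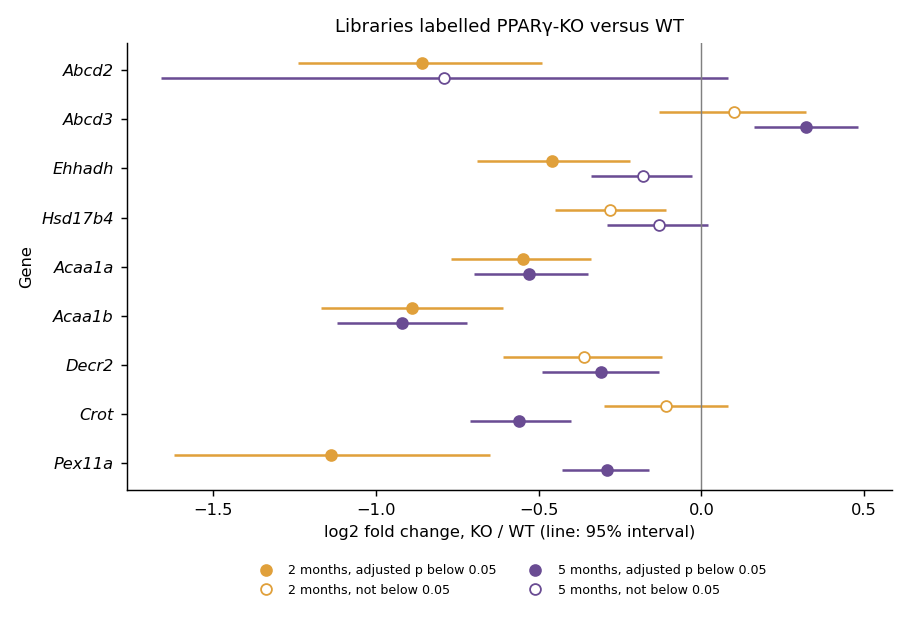
Log2 fold change (x axis) of each gene (y axis) in PPARγ-KO over WT at 2 months (orange) and 5 months (purple) with its 95% interval (line), filled where the adjusted p is below 0.05. Acaa1a and Acaa1b are filled and below 0 at both times, and Abcd3 at 5 months is the only filled point above 0.

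Between 2 and 5 months of diet, 5 of the 9 genes differed in WT and 3 in PPARγ-KO, where 46.4% and 44.9% of all genes tested did. These shares are near those of all genes, and the libraries of the 2 times may have been made apart, so time and batch cannot be told apart. Between the times in WT, 7 of 7 macrophage and 3 of 4 T and NK cell markers were higher. Of 5 endothelial markers 3 were lower and 1 higher in WT. In PPARγ-KO 4 of 5 endothelial markers were lower, while 3 of 7 macrophage markers were higher and 1 lower. In each genotype 2 of 2 neutrophil markers tested were higher. The part of these cells in the results over time was not tested. Abcd3 was lower at 5 months in both genotypes, by a log2 fold change of -0.62 in WT (SE 0.0878, adjusted p = 0.000251) and -0.41 in PPARγ-KO (SE 0.0857, adjusted p = 0.00281). Crot was higher in both, by 0.73 in WT (SE 0.0855, adjusted p = 7.1e-05) and 0.27 in PPARγ-KO (SE 0.0716, adjusted p = 0.00974), the latter lost without PPARγ-KO replicate 1 at 2 months (adjusted p = 0.0518). Acaa1a was lower in both, by -0.27 in WT (adjusted p = 0.0348) and -0.26 in PPARγ-KO (adjusted p = 0.0261). In WT it was lost without replicate 1 or 2 at 2 months or replicate 2 or 3 at 5 months (0.0563 to 0.171), and in PPARγ-KO without replicate 3 at 2 months or replicate 2 or 3 at 5 months (0.0801 to 0.104).

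Pex11a and Decr2 were lower at 5 months in WT. Pex11a fell by 0.78 on the log2 scale (SE 0.181, adjusted p = 0.0103), while in PPARγ-KO its estimate was 0.05 (95% interval -0.12 to 0.22, adjusted p = 0.619). Decr2 fell by 0.31 (SE 0.0939, adjusted p = 0.0205), lost without WT replicate 2 at 2 months or replicate 2 or 3 at 5 months (0.0661 to 0.117), and stood at -0.26 in PPARγ-KO (adjusted p = 0.0745), which passed under 5 of 13 alternatives: without replicate 2 at 2 months (-0.38, adjusted p = 0.00224), with DESeq2 (0.0465), library size alone (0.0301), no filter on low counts (0.000432) and the replicate block (0.0223). Ehhadh, Hsd17b4, Acaa1b and Abcd2 did not pass in either genotype, with estimates from -0.29 to 0.14. Other settings and single libraries changed some of these. Acaa1b passed with DESeq2, library size alone and no filter on low counts in WT (adjusted p = 0.046, 0.0284 and 0.0386) and in PPARγ-KO (0.0294, 0.0209 and 6.09e-05), and without replicate 1 at 2 months in WT (-0.32, adjusted p = 0.0106) or replicate 2 at 2 months in PPARγ-KO (-0.39, adjusted p = 0.00802). Ehhadh passed in WT with library size alone (-0.27, adjusted p = 0.0339) and without replicate 1 at 2 months (-0.23, adjusted p = 0.0329). Abcd2 passed in PPARγ-KO without replicate 2 at 5 months (-0.47, adjusted p = 0.0283) and in WT with the replicate block (-0.31, adjusted p = 0.038).

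**Figure D4:**
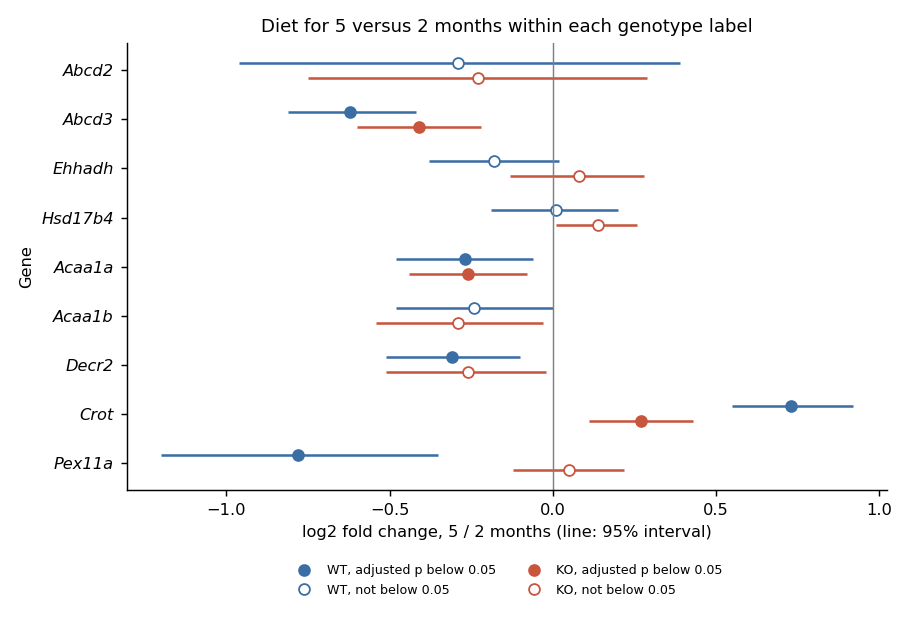
Log2 fold change (x axis) of each gene (y axis) at 5 over 2 months in WT (blue) and PPARγ-KO (red) with its 95% interval (line), filled where the adjusted p is below 0.05. Crot is to the right of 0 and Abcd3 and Acaa1a to the left of 0 in both genotypes, while Pex11a is at -0.78 in WT and 0.05 in PPARγ-KO.

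Further genes listed around the pathway were split between the directions. Of these 19, which include a lyase of alpha-oxidation, thioesterases and a cofactor carrier, 18 were tested. The split is therefore one of this list and not of the steps of the cycle itself. At 2 months 2 were higher and 2 lower in PPARγ-KO (1.78% and 1.78% over all genes tested), with a median of -0.01 on the log2 scale. The lower ones were Acot3, an acyl-CoA thioesterase (-1.86, SE 0.277, adjusted p = 0.0253), and Aldh3a2, the fatty aldehyde dehydrogenase (-0.82, SE 0.1, adjusted p = 0.00402). The higher ones were Hacl1, the 2-hydroxyacyl-CoA lyase of alpha-oxidation (0.69, adjusted p = 0.0201), and Pecr, a trans-2-enoyl-CoA reductase (0.61, adjusted p = 0.0193). At 5 months 3 were higher and 1 lower (8.90% and 9.51% over all genes tested), with a median of -0.04. Higher in PPARγ-KO were Acot4, another thioesterase (0.48, adjusted p = 0.0017), Pecr (0.36, adjusted p = 0.00578) and Slc25a17, a peroxisomal cofactor carrier (0.32, adjusted p = 0.0162). Aldh3a2 was lower (-0.63, adjusted p = 0.000297). Acot4 had been lower in PPARγ-KO at 2 months without passing (-0.78, adjusted p = 0.102). Its mean fell over time, from 181 to 40.6 CPM in WT and from 106 to 56.1 CPM in PPARγ-KO. Of the 18 genes 2 passed the test of the difference between times, both upward, where 1.57% of all genes did.

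Aldh3a2 and Pecr passed at both times, in opposite directions. Aldh3a2 was 1193, 1483 and 1427 CPM in WT and 800, 750 and 780 CPM in PPARγ-KO at 2 months, and 1209, 977 and 997 CPM against 712, 671 and 653 CPM at 5 months. Pecr was 130, 93.5 and 112 CPM in WT and 166, 173 and 173 CPM in PPARγ-KO at 2 months, and 152, 127 and 125 CPM against 179, 168 and 166 CPM at 5 months. For neither gene did the groups overlap at either time.

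Estimates for peroxins, the factors that build the organelle, were small. At 2 months 1 of 14 was lower, against 1.78% of all genes tested (Pex19, a receptor for membrane proteins, -0.37, adjusted p = 0.0207). The median was 0.00 at both times. Their summed level was 866 to 928 CPM in WT and 822 to 843 CPM in PPARγ-KO at 2 months, and 832 to 931 against 845 to 885 CPM at 5 months. Of 13 other peroxisomal enzymes 1 was higher at 2 months, against 1.78% of all genes tested (Paox, the polyamine oxidase, 0.65, adjusted p = 0.00549), with a median of 0.17. At 5 months 5 were higher and 1 lower (8.90% and 9.51% over all genes tested), with a median of 0.06. Among them were Pipox, which oxidizes pipecolic acid (0.50, adjusted p = 0.000116), Paox (0.44, adjusted p = 0.00132), Cat, the catalase (0.39, adjusted p = 0.0267), and the lower Hao1, a hydroxyacid oxidase (-0.36, adjusted p = 0.033). Among PPAR receptors and partners, Ppara (0.45, adjusted p = 0.00125), Pparg and the coactivator Ppargc1a (1.32, adjusted p = 4.65e-06) were higher at 5 months, and of these 5 genes Pparg alone passed at 2 months.

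**Figure D5:**
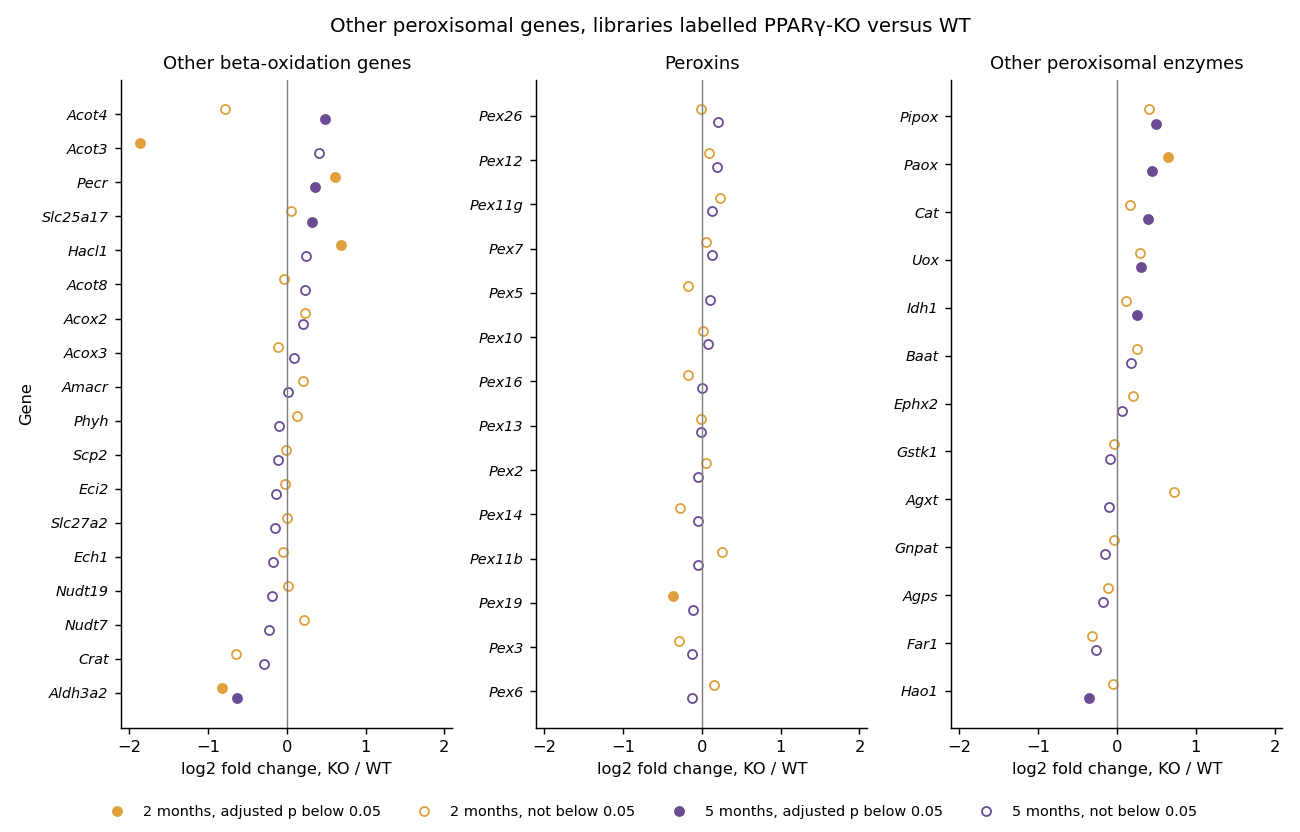
Log2 fold change of PPARγ-KO over WT (x axis) for the other peroxisomal genes tested (y axis) at 2 months (orange) and 5 months (purple), filled where the adjusted p is below 0.05. Pecr and Paox are filled above 0 at both times, and Aldh3a2 is filled below 0 at both times.

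Genes whose log2 CPM moved most like Ehhadh over the 12 libraries, of 13170 compared, were Iars2 (Pearson r = 0.934), Aplp2 (0.923), Cyp4a14 (0.916), Limk1 (0.911) and Med22 (0.898). Cyp4a14 is a fatty acid omega-hydroxylase. Those most like Abcd2 were Fbln5 (0.93), Tgfb1 (0.92), Bub1b (0.918), Det1 (0.913) and Map1b (0.908), of which Tgfb1 and Fbln5 encode a growth factor and a matrix protein. The 12 points share genotype, time and any batch, so these values describe a likeness in pattern.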

How the data were processed

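RNA was measured in 12 whole-liver libraries, 3 for each genotype label and time. The authors deposited raw read counts per gene, with the gene's length, for each library. The study's methods name STAR and the submitters' processing notes HISAT2 as the aligner, both to mm10. The counting program, the annotation and the use of strand are not given in the sources used here. A spreadsheet had turned 27 gene names into dates, which were restored by identifier. Groups were taken from the labels.

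Genes were filtered with filterByExpr, scaled by TMM and tested with edgeR's robust quasi-likelihood F-test (edgeR 4.0.16, R 4.3.3), two-sided, with Benjamini-Hochberg adjustment over all genes tested and a threshold of 0.05, which is what called means. Each comparison used its own 6 libraries, and the difference between times used all 12. CPM used TMM over 12 libraries and RPKM the deposited lengths. The fits were tested on simulated data, where the difference between times recovered fewer of the changed genes than the other comparisons did. Alternatives were DESeq2 1.42.0, other scalings and filters, a replicate block, a fit of all 12 libraries, and leaving out each library. Within groups the chi-square per gene was 8.61 to 28.7, except for WT replicates 2 and 3 at 5 months (2.35), which were more alike than any other pair but differed by more than counting noise, which gives about 1, and were kept as separate libraries.

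The labels' replicate numbers recur in each group. At 2 months the deviations of same-numbered libraries from their group means correlated at r = 0.218, 0.323 and 0.14 over the 5000 most abundant genes. Unlike numbers gave -0.273 to 0.113, so 0.14 was close to the highest of these. Deviations within a group sum to 0, so these values are not independent. The blocked value is printed where it changed a call. At 5 months same-numbered libraries gave -0.0806, -0.0586 and -0.172, against -0.0514 to 0.145 for unlike numbers.

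The genes and lists were chosen with earlier results of these data known. All 9 genes are named with every library's value. Of each further list up to the 4 called genes with the largest absolute log2 fold change at each time are named, and for Ehhadh and Abcd2 the 5 genes with the highest correlation. Slc25a17, Oxsr1, Myd88, Dlec1, Gm37153 and Gm27941 were added after their values or positions were seen. Of these lists 3 genes are not reported here and are left out of the counts, medians and sums.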

Additional observations from a re-analysis of the deposited data

Results flagged for a closer look

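Crot was singled out because its PPARγ-KO to WT difference was not the same at 2 and 5 months by a test of that difference. The log2 fold change was -0.11 (SE 0.0847) at 2 months and -0.56 (SE 0.072) at 5 months, and the difference between them was -0.46 (SE 0.108, adjusted p = 0.0423, edgeR's quasi-likelihood test in 12 libraries). Mean levels were 531 CPM in WT and 494 CPM in PPARγ-KO at 2 months, and 885 CPM in WT and 597 CPM in PPARγ-KO at 5 months. By the same test 4 of 7 macrophage markers were called lower, as were 1 of 7 hepatocyte and 1 of 5 endothelial markers (0.912% of all genes tested). The macrophage markers summed to 482 to 614 CPM in WT and 495 to 584 CPM in PPARγ-KO at 2 months. At 5 months they summed to 1346 to 1553 against 630 to 832 CPM. The part of these cells in the Crot result was not tested. The difference kept its sign under all 18 alternatives (-0.51 to -0.41) and passed the threshold in 8 of them (adjusted p from 0.00117 to 0.114 over the 18).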

How the results depend on the processing

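At 2 months 5 of the 9 genes were called, and 1 to 6 when a library was left out. At 5 months 6 were called, and 5 to 7 when a library was left out. Over time 5 were called in WT (3 to 6) and 3 in PPARγ-KO (2 to 5), and in PPARγ-KO 5 with DESeq2, with library size alone and without a filter on low counts. For the difference between times 1 gene was called, 2 with DESeq2, 2 without a filter, 0 with the replicate block and 0 to 2 when a library was left out. The Crot difference was lost without WT replicate 2 or 3 or PPARγ-KO replicate 2 or 3 at 2 months, WT replicate 1, 2 or 3 at 5 months, or PPARγ-KO replicate 2 or 3 at 5 months (adjusted p 0.0551 to 0.114).

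Signs turned for these genes, whose estimates lay between -0.04 and 0.06. Hsd17b4 over time in WT was -0.08 with library size alone, -0.02 with at least 10 counts in every library, and -0.05 to 0.04 when a library was left out. Pex11a over time in PPARγ-KO was -0.01 with library size alone and -0.02 to 0.13 when a library was left out. When a library was left out, the difference between times ran from -0.04 to 0.11 for Acaa1a, -0.14 to 0.07 for Acaa1b, -0.07 to 0.14 for Decr2 and -0.18 to 0.23 for Abcd2.

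Over all genes 519 were called at 2 months, against 988 with DESeq2, 1562 without a filter, 817 with the block, 1153 with all 12 libraries in 1 fit, and 117 to 1577 when a library was left out (1577 without WT replicate 1, 117 without WT replicate 2). At 5 months 2602 were called, and 1593 to 3078 when a library was left out. For the difference between times 238 were called, 594 with DESeq2, 793 without a filter and 83 to 567 when a library was left out. Library size alone moved the split of higher to lower calls from 259 and 260 to 171 and 349 at 2 months, from 1258 and 1344 to 889 and 1894 at 5 months, from 3442 and 3283 to 2745 and 3872 over time in WT, and from 3287 and 3215 to 2741 and 3725 over time in PPARγ-KO.

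With the replicate block the 2-month call of Abcd2 (adjusted p = 0.0523) was lost and no other 2-month call of the 9 genes. The labels state no pairing beyond a shared number at either time. At 5 months, where same-numbered libraries did not correlate above unlike ones, the block left 7 of the 9 genes called in place of 6. It added Abcd2 (-0.77, adjusted p = 0.000966). Over time the block added Abcd2 in WT (-0.31, adjusted p = 0.038) and exchanged Acaa1a (adjusted p = 0.0539) for Decr2 (adjusted p = 0.0223) in PPARγ-KO. The cause of these changes was not tested. With 3 libraries a group, estimates with a standard error near 0.1 or more leave small changes below the threshold.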
